A study of Mus musculus with 6 samples.

Results

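Among the RNAs of mouse lungs carrying KP tumour cells and of the KP cell line itself, 33 genes of sterol and fatty acid synthesis were followed. They were chosen by name, from what their products do, but with earlier results of these data known. All 33 were found among the 20687 gene symbols of the count table. The set holds 8 enzymes that run from acetyl-CoA to the isoprenoids, 11 that run from squalene to cholesterol, 5 regulators of the pathway, the sterol carrier gene Stard4 and 8 genes of fatty acid synthesis. The lung group held 3 samples from C57BL/6 mice given 100000 KP cells through the tail vein, with lungs taken at day 28 and digested with collagenase. The series description mentions pooling of lung tissue, 3 mice and independent experiments, and can be read as 3 mice in each sample or as 1 mouse in each experiment, so it is unclear whether the lung SD is between pools or between animals. The cell line group held 3 samples of KP cells, also labelled C57BL/6, with no mouse host. KP is the submitters' name for the line. The labels do not spell out its genotype or its culture medium, and they do not say whether the 3 cell line samples were separate cultures, so p-values measure only the spread between these samples. The series was set up to compare chemokine expression, and no tumour-free lung is among the samples used here, so lung tissue and the growth of KP cells in it cannot be told apart.

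Cholesterol is made from acetyl-CoA through mevalonate, the isoprenoid diphosphates and squalene, and the isoprenoids also feed dolichol, ubiquinone and the lipid anchors of small GTPases. Fatty acids are made from the same acetyl-CoA, which citrate cleavage supplies to the cytosol, and are then lengthened and desaturated. The genes of both branches are known targets of the sterol regulatory element binding proteins (SREBPs), which Scap escorts out of the endoplasmic reticulum when membrane sterol is low and which the Insig proteins hold back when it is high. In lung, alveolar type 2 cells make surfactant lipid, and fatty acid synthesis is known as part of that work.

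The tissue labels were checked against marker genes, given as the summed CPM of each list. CPM is the count scaled to a common library total, on library sizes scaled by edgeR's TMM method. Alveolar type 2 markers summed to between 14936 and 21563 CPM in the lungs and to at most 6.62 CPM in the cell line, where Sftpa1, Sftpd and Slc34a2 were at 0. Endothelial markers reached 1087 to 1733 CPM in the lungs against at most 11.2 CPM in the line, and fibroblast markers 850.5 to 2793 CPM against at most 24.2 CPM. Epithelial markers summed to 2272 to 3817 CPM in the lungs and 3188 to 7406 CPM in the line. There the keratins Krt8, Krt18 and Krt19 were at 996.3 to 3454, 1181 to 2622 and 593 to 862 CPM, the cadherin Cdh1 at 415.7 to 466.4 CPM and Epcam at 1.91 to 3.00 CPM. T cell markers were at 6.80 to 14.7 CPM in the line and 106 to 140.3 CPM in the lungs. B cell markers were at 36.8 to 68.0 CPM in the line, against 133 to 264 CPM in the lungs. In bulk RNA, fewer cells of a type and less RNA per cell cannot be told apart.

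A pair of libraries stood apart from their groups. Lung replicate 2 deviated from the other lungs with transcript length: its median log2 difference was 0.77 over the 3803 tested genes with the shortest transcripts and -0.99 over the 3803 with the longest. Cell line replicate 1 had a summed proliferation marker level of 476.6 CPM, against 2654 and 2725 CPM in the other cell line samples, and Mki67, a marker of cycling cells, at 37.9 CPM against 514 and 540.3 CPM. Where a call changed with either library left out alone, the value without it is given beside the gene. Total estimated counts ranged from 17786758 to 22862396 per sample.

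Sequences upstream of sterol genes are shown first, because SREBPs act at such sites together with the CCAAT-binding factor NF-Y. RefSeq promoter windows on GRCm38.p6 (250 bases before to 50 bases after an annotated start) were found for 26 of the 33 genes. Sqle, Fdps, Fdft1, Stard4, Scd1, Scd2 and Fads1 had no window in the table. Both strands were searched for an SRE-like motif, TCACNCCAC, and for CCAAT. The SRE-like letters were found in the window of 1 of the 26 genes, Hmgcs1, against 1.44% of the 27025 genes of all kinds with a window. Windows of 3 sterol enzymes that were lower in lung, including the only one with the SRE-like letters, are printed 5′ to 3′ on the gene's own strand, with capitals marking the SRE-like match and each CCAAT or its reverse complement ATTGG. They are Hmgcs1 (chr13:119690101-119690400, plus strand), which held the SRE-like match 137 bases before the start and 4 CCAAT boxes, Msmo1 (chr8:64733529-64733828, minus strand) with 3 boxes, and Lss (chr10:76531355-76531654, plus strand) with 1 box. No marked matches overlapped in any of them.
Hmgcs1: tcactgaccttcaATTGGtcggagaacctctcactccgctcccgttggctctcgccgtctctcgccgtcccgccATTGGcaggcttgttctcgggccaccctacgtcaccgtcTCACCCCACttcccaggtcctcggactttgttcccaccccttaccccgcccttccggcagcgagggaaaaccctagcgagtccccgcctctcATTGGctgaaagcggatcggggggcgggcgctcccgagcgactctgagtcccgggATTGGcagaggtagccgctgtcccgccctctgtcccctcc
Msmo1: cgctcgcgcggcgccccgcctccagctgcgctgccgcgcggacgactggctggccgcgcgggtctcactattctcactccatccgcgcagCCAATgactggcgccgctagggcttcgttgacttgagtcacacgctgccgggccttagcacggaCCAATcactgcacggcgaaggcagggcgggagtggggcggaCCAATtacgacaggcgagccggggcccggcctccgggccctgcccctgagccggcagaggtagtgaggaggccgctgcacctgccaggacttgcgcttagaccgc
Lss: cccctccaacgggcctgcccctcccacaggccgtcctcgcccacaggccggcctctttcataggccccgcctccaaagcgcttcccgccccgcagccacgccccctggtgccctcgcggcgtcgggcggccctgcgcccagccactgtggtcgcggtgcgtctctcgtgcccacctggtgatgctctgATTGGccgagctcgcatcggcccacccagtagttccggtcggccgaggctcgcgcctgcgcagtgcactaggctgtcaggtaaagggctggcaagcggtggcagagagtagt
A CCAAT box in either direction was found in the windows of 21 of the 26 genes (80.8%), against 41.1% of all genes with a window. By branch, 15 of 16 sterol enzymes held it, 4 of 5 regulators and 2 of 5 fatty acid genes. The GC box GGGCGG was found in 21 of 26 (80.8%), against 38.2% of all genes, and the E-box CACGTG in 5 of 26 (19.2%), against 8.09%. These backgrounds cover genes of all kinds with a window, expressed here or not. Shares among the genes tested were not computed, so the higher shares cannot be read as particular to this pathway. A match describes these letters in this window and is not a measured binding site. A window without a match can still hold a site in other letters, or the site can lie outside it.

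Most sterol synthesis genes were lower in the tumour-bearing lungs than in the KP cells. Among the 8 fatty acid genes 3 were lower, and Scd1 alone was higher. Of the 33 genes, 19 were lower in lung, 1 was higher and 13 did not pass edgeR's quasi-likelihood test at an adjusted p below 0.05 over the 15212 genes tested. All 33 were among the genes tested, after a filter on low counts. Over all genes tested, 17.5% were lower in lung and 31.3% were higher, 48.8% in all. The median log2 fold change (lung minus cell line) of the 33 genes was -0.97, and that of all genes tested was 0.08. In CPM the lung and cell line samples did not overlap for 24 of the 33 genes, 23 of them lower in lung. The background was 26.5% for genes separated in that direction, 35.6% in the other and 62.2% for either. Without lung replicate 1, 12 of the 33 genes were lower and 1 higher (backgrounds 11.8% and 27.6%). Leaving out both cell line replicate 1 and lung replicate 2 gave 27 lower and 1 higher, beside backgrounds of 35.2% lower and 43.2% higher. Mvk, Dhcr7, Stard4 and Fads2 passed as lower in that setting alone (edgeR adjusted p = 0.0366, 0.00343, 0.00542 and 0.00681).

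**Figure D1:**
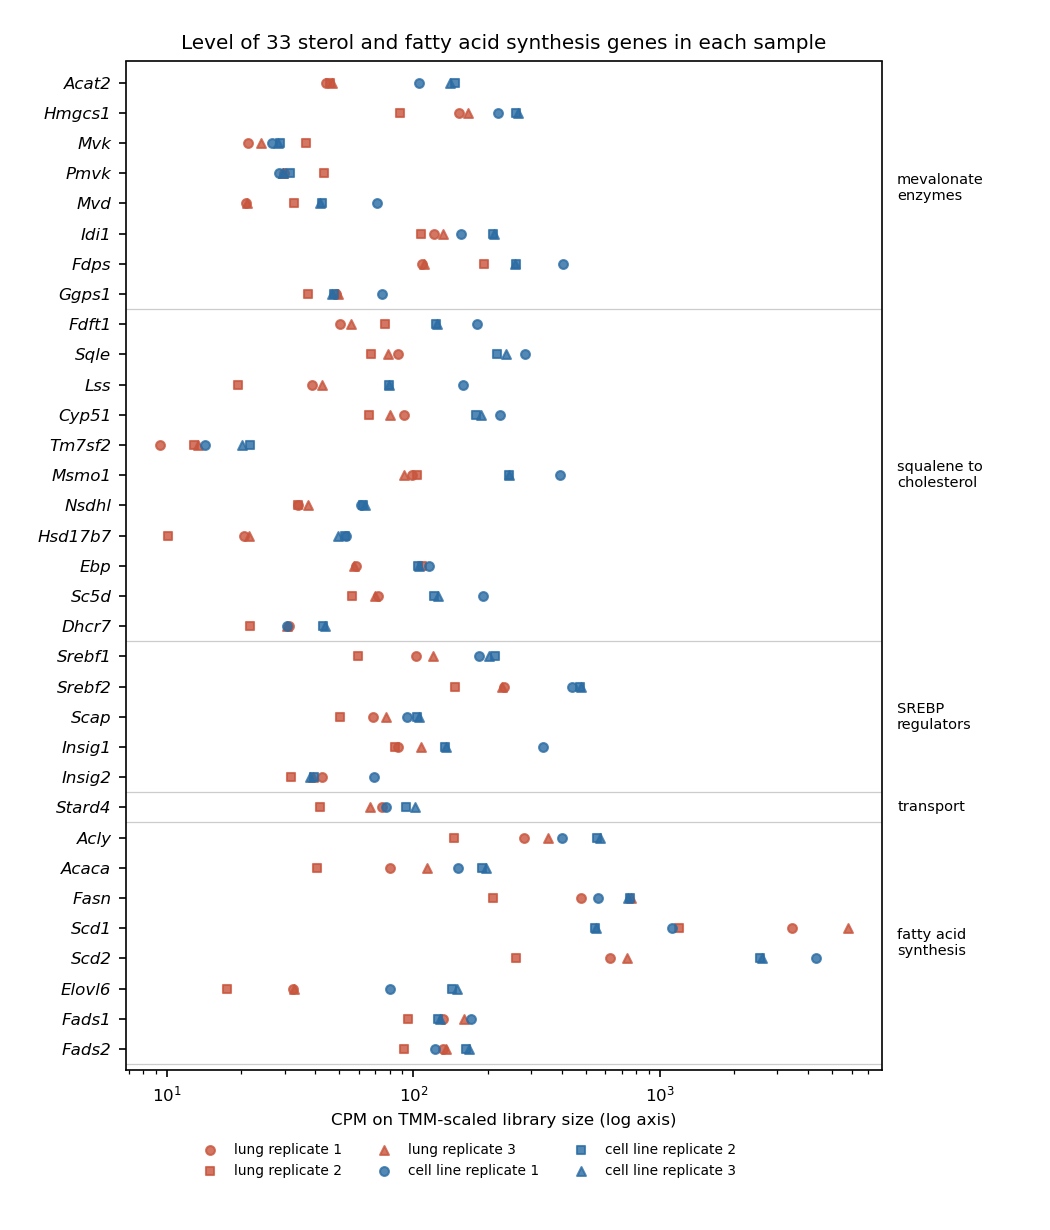
CPM of each of the 33 genes in each of the 6 samples on a log axis, with genes ordered by role; red symbols are lung and blue symbols cell line samples, and the shape marks the replicate number. Most sterol enzymes sit to the left in lung, Scd1 sits to the right, and the blue square and triangle (cell line replicates 2 and 3) lie close together.

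Of the 19 enzymes from acetyl-CoA to cholesterol, 13 were lower in lung (68.4%, background 17.5%), 0 were higher and 6 did not pass. The count of 0 was the same by DESeq2 (background 32.6% higher) and by limma-voom (31.5%), and at an unadjusted p below 0.05. Their median log2 fold change was -1.05, with 18 of the 19 below 0, and 14 of the 19 had every lung sample below every cell line sample (background 26.5%). Summed per length, in TPM (transcript abundance scaled to a common total, from annotated transcript lengths), the 19 enzymes reached 998.4, 840.8 and 1044 TPM in lung replicates 1 to 3. The cell line samples held 2271, 1815 and 1817 TPM. The lungs were thus at 961 ± 107 TPM (SD, n = 3) and the cell line at 1967 ± 263 TPM (SD, n = 3), a 2.05-fold difference with no overlap. Without cell line replicate 1 the difference was 1.89-fold, and without both that sample and lung replicate 2 it was 1.78-fold. Proliferation markers summed to 592.1 to 801 CPM in the lungs, and to 476.6, 2654 and 2725 CPM in the line, and their part in the result was not tested. Markers of type 2, endothelial and fibroblast cells, given above, were high in the lungs and near 0 in the line, and the part of these cells in the lower levels was not tested. Without lung replicate 1, 8 of the 19 enzymes were lower (background 11.8%), and under scaling by library size alone also 8 (background 11.4%).

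The early, mevalonate part of the pathway was mixed. Of its 8 enzymes 5 were lower in lung (62.5%, background 17.5%), 0 were higher (background 31.3%) and 3 did not pass. The count higher was 0 also by DESeq2, by limma-voom and at an unadjusted p below 0.05. The median log2 fold change was -0.78. Acat2, the cytosolic thiolase that joins acetyl-CoA units, was at 44.1, 45.7 and 46.9 CPM in the lungs. In the cell line it was at 105.2, 146.7 and 140 CPM. The groups were well apart, at 45.6 ± 1.43 against 131 ± 22.3 CPM (SD, n = 3 each), a log2 fold change of -1.52 ± 0.24 (SE, adjusted p = 0.00108). Its call held under all 15 alternatives tried.

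Hmgcs1, which makes hydroxymethylglutaryl-CoA and whose window carries the SRE-like letters above, was at 153, 88.2 and 166 CPM in the lungs and at 220.5, 261 and 265 CPM in the cell line. All lung samples were below the cell line, with lung replicate 2 the lowest, and the log2 fold change was -0.88 ± 0.30 (adjusted p = 0.0407). Mvk and Pmvk, the kinases that phosphorylate mevalonate in turn, did not pass. Their log2 fold changes were -0.02 ± 0.27 and 0.19 ± 0.25 (adjusted p = 0.947 and 0.548). For both, the highest of the 6 values was lung replicate 2, at 36.6 CPM for Mvk and 43.2 CPM for Pmvk, while the other samples spanned 21.3 to 28.7 CPM and 28.4 to 31.7 CPM. Their count-weighted lengths were 1575 and 1193 bases, and short transcripts were raised in that sample. Per length, Pmvk was higher in every lung, at 50.7, 52.0 and 52.1 TPM against 42.7, 47.1 and 43.8 TPM in the line. Mvk overlapped between the groups per length as well.

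Mvd, the decarboxylase that yields isopentenyl diphosphate, was at 20.9, 32.8 and 21.1 CPM in the lungs against 70.9, 42.3 and 41.9 CPM in the line (log2 fold change -1.05 ± 0.32, adjusted p = 0.0257). Without cell line replicate 1, its highest sample, Mvd was at -0.77 and did not pass (adjusted p = 0.0558). Idi1, the isomerase of that product, was at 121, 107 and 132 CPM against 156, 209.5 and 213 CPM (log2 fold change -0.68 ± 0.25, adjusted p = 0.0479). For Mvd and Idi1 the groups did not overlap. Fdps, the farnesyl diphosphate synthase, had the highest level per length of the sterol enzymes, at 195 ± 24.7 TPM in lung and 436 ± 122 TPM in the line. In CPM it was at 108, 194 and 109.8 in the lungs and at 405.5, 260.5 and 257 in the line (log2 fold change -1.16 ± 0.34, adjusted p = 0.022). Lung replicate 2 was the highest lung and cell line replicate 1 the highest cell line sample, and without the latter the call was lost (-0.93, adjusted p = 0.0547). Ggps1, which makes geranylgeranyl diphosphate for protein anchors, did not pass (-0.32 ± 0.28, adjusted p = 0.36), and its groups overlapped.

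These mevalonate calls were close to the threshold. Hmgcs1, Mvd, Idi1 and Fdps each missed it under at least 5 of the 15 alternatives, and all missed it without lung replicate 1, which left 1 enzyme called, Acat2 (background 11.8%). Without lung replicate 3, 2 were called (background 13.2% lower). Without cell line replicate 1, 2 or 3, 3 were called (backgrounds 19%, 12.4% and 11.8%). The counts were 5 without lung replicate 2 (background 24.3%) and 6 without both lung replicate 2 and cell line replicate 1 (background 35.2%).

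The later steps, from squalene to cholesterol, gave the steadier difference. Of these 11 enzymes 8 were lower in lung (72.7%, background 17.5%), 0 were higher (background 31.3%) and 3 did not pass. None were higher by DESeq2, by limma-voom or at an unadjusted p below 0.05. The median log2 fold change was -1.23, from -1.67 to -0.49. The number lower lay between 7 and 9 when any 1 sample was left out (backgrounds from 11.8% to 24.3%). Of the 8 calls, 7 held under all 15 alternatives.

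Sqle, squalene epoxidase and a rate-limiting step of the later pathway, was at 86.6, 67.1 and 78.6 CPM in the lungs and at 284.7, 217 and 237 CPM in the cell line. Every lung sample lay far below every cell line sample, with group means of 77.4 ± 9.79 and 246 ± 34.7 CPM and a log2 fold change of -1.67 ± 0.25 (adjusted p = 0.000811). Msmo1, the methyl sterol monooxygenase, was at 98.7, 103.6 and 91.6 CPM against 392, 244 and 244 CPM (log2 fold change -1.58 ± 0.28, adjusted p = 0.0021). It had the highest level per length of these 11 enzymes in both groups, 101 ± 11.7 TPM in lung and 274 ± 84.2 TPM in the line.

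Lss, which closes squalene epoxide into lanosterol, was at 38.6, 19.5 and 42.6 CPM in the lungs against 158, 79.3 and 79.7 CPM in the line. Its log2 fold change was -1.66 ± 0.41 (adjusted p = 0.0105). Lung replicate 2 was low and cell line replicate 1 high, and without both of them the log2 fold change was -0.97, still past the threshold. Hsd17b7, a reductase of the demethylation steps, was at 20.6, 10.1 and 21.5 CPM against 53.2, 52.8 and 49.3 CPM (log2 fold change -1.57 ± 0.32, adjusted p = 0.00441). Nsdhl, its dehydrogenase partner in those steps, varied little within each group, with 34.0, 34.1 and 37.3 CPM against 61.5, 62.4 and 63.5 CPM (log2 fold change -0.83 ± 0.21, adjusted p = 0.0123). Its call was lost without lung replicate 1 (adjusted p = 0.0636) and under scaling by library size alone (adjusted p = 0.0511).

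The other lower genes of this segment were Fdft1, the squalene synthase (-1.23 ± 0.28, adjusted p = 0.00781), Cyp51, the lanosterol demethylase (-1.32 ± 0.25, adjusted p = 0.00268), and Sc5d, a sterol desaturase (-1.15 ± 0.27, adjusted p = 0.00891). The remaining 3 did not pass. Tm7sf2, a sterol reductase at 9.39 to 13.3 CPM against 14.2 to 21.8 CPM, had a log2 fold change of -0.66 ± 0.28 (adjusted p = 0.086), and without cell line replicate 1 it passed at -0.83 (adjusted p = 0.0295). Ebp, the sterol isomerase, was at 58.6, 108.5 and 57.2 CPM in the lungs against 115.6, 104.4 and 105.5 CPM (-0.54 ± 0.30, adjusted p = 0.178). Only lung replicate 2 overlapped the cell line for Ebp, and without that sample the log2 fold change was -0.96 (adjusted p = 0.00237). Dhcr7, the reductase that forms cholesterol from its last precursor on that route, had a log2 fold change of -0.49 ± 0.27 (adjusted p = 0.163).

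**Figure D2:**
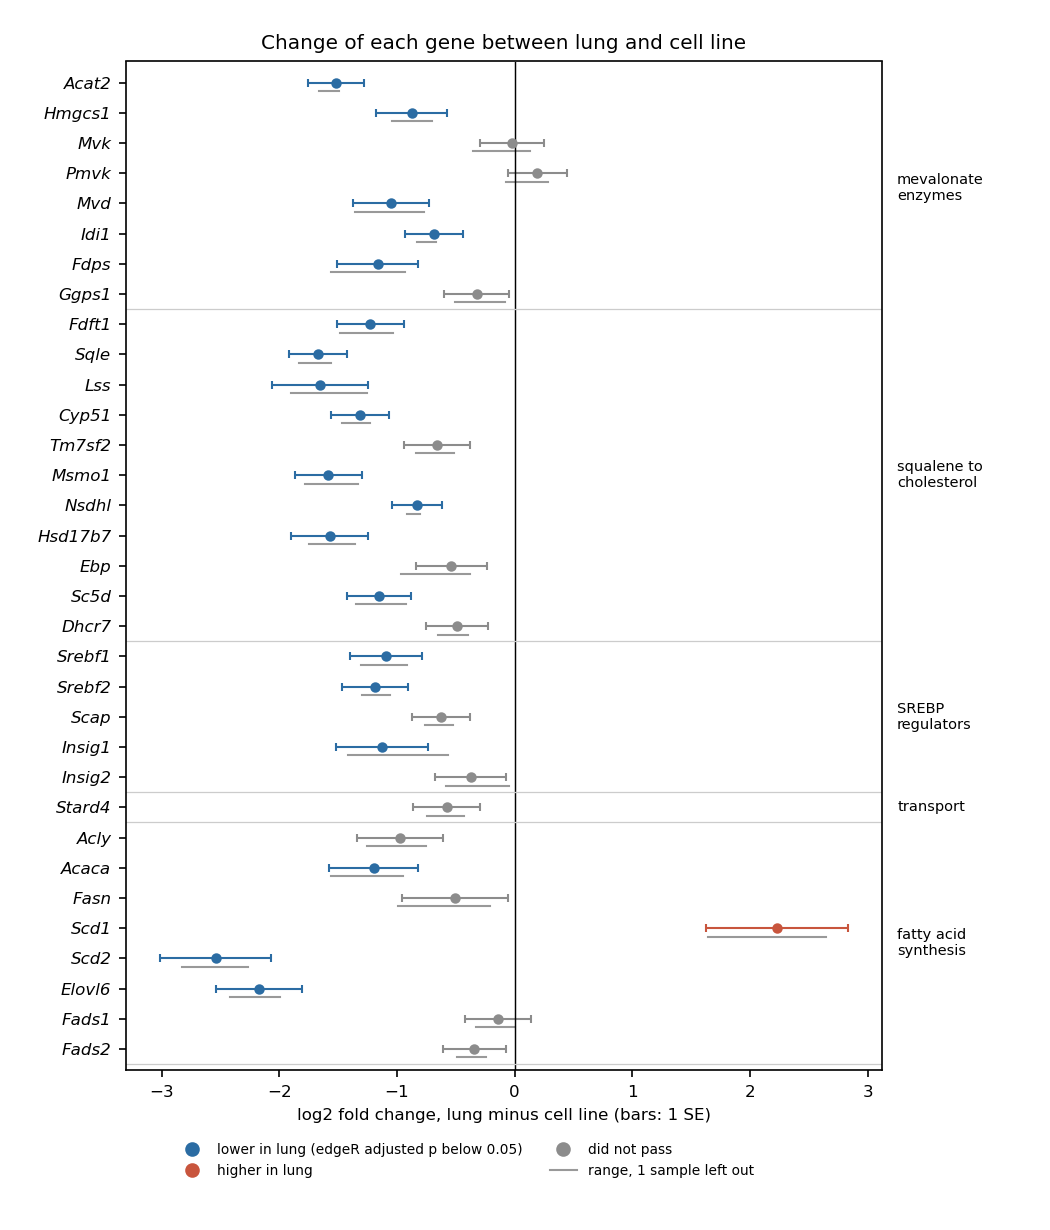
Log2 fold change (lung minus cell line) of each of the 33 genes with 1 SE either side; blue points were lower in lung, red higher and grey not past an adjusted p of 0.05, and the thin grey line below each point spans the values with 1 sample left out. The sterol enzymes called lie between -1.67 and -0.68, and the desaturase genes Scd2 (-2.54) and Scd1 (2.23) lie at opposite ends.

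Among the regulators, both SREBP genes and Insig1 were lower in lung, 3 of 5 (60%, background 17.5%), with 0 higher (background 31.3%). The count of 0 was the same by DESeq2, by limma-voom and at an unadjusted p below 0.05, and the median log2 fold change was -1.09. Srebf2, whose product chiefly drives sterol genes, was at 234, 147 and 229.6 CPM in the lungs and at 441, 473 and 477 CPM in the line. The groups were clearly apart (log2 fold change -1.19 ± 0.28, adjusted p = 0.00842), and the call held under all 15 alternatives. Srebf1, whose product acts more on fatty acid genes, was at 102, 59.8 and 120.2 CPM against 185, 214 and 202 CPM (log2 fold change -1.09 ± 0.30, adjusted p = 0.0178). Its call was lost without cell line replicate 2 (adjusted p = 0.0504). The ratio of Srebf2 to Srebf1 per length was 1.99, 2.30 and 1.52 in the lungs and 1.92, 1.94 and 2.01 in the line, so the groups overlapped in their balance.

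Insig1, an SREBP target whose product retains Scap, was at 86.3, 83.9 and 106.8 CPM in the lungs against 334, 135 and 136 CPM in the line (log2 fold change -1.13 ± 0.39, adjusted p = 0.0444). Cell line replicate 1 held more than the other samples of its group combined, and without it the log2 fold change was -0.56 (adjusted p = 0.0713). The call was also lost without lung replicate 1, 2 or 3 (adjusted p = 0.119, 0.0846 and 0.0653). Insig2, a retention protein of the same kind, was at 42.7, 31.7 and 39.1 CPM against 69.3, 39.6 and 38.1 CPM and did not pass (-0.37 ± 0.30, adjusted p = 0.336). Scap itself was below the cell line in every lung sample, 50.5 to 77.4 against 93.8 to 105.4 CPM, but did not pass (-0.62 ± 0.25, adjusted p = 0.068). It passed without lung replicate 2 (-0.53, adjusted p = 0.0272). Stard4, which carries sterol between membranes, did not pass either, at 41.6 to 74.5 against 77.5 to 101.2 CPM (-0.58 ± 0.28, adjusted p = 0.127).

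The mixture of Srebf1 transcripts differed between the groups as well as the total. Srebf1 has alternative starts, an upstream one known for the SREBP-1a form and a downstream one known for SREBP-1c. In the annotation, transcript Srebf1-201 begins upstream and Srebf1-207 begins 10139 bases further downstream. Srebf1-207 made up 5.51%, 1.18% and 5.71% of the gene's estimated counts in the lungs and 27.8%, 19.5% and 20.7% in the cell line. In CPM this transcript was at 5.61, 0.703 and 6.86 against 51.4, 41.9 and 41.8. The upstream Srebf1-201 was the largest share in all 6 samples, 63.0% to 81.0% in lung and 65.7% to 72.0% in the line, with overlap. Srebf1-203, which starts 13416 bases downstream in the second exon, took 34.2% in lung replicate 2 and 5.40% to 14.8% in the other samples. These shares are Salmon's estimates for transcripts that overlap over most of their length, and they were not tested. The windows holding the 2 starts are printed to show that they differ: the upstream one (chr11:60220578-60220877, minus strand) held 0 CCAAT boxes and the downstream one (chr11:60210422-60210721, minus strand) held 1, in capitals.
Srebf1-201 start: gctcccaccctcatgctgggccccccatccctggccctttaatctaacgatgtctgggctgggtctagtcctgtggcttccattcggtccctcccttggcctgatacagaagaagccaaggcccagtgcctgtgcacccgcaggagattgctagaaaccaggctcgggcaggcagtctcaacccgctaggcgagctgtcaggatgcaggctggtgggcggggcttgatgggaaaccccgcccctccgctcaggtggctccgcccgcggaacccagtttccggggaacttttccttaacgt
Srebf1-207 start: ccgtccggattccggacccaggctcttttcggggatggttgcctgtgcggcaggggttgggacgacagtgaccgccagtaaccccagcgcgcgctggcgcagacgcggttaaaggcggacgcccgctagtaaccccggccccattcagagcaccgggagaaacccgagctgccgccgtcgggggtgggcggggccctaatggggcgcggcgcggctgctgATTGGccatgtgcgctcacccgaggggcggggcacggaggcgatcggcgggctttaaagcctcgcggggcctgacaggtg

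**Figure D3:**
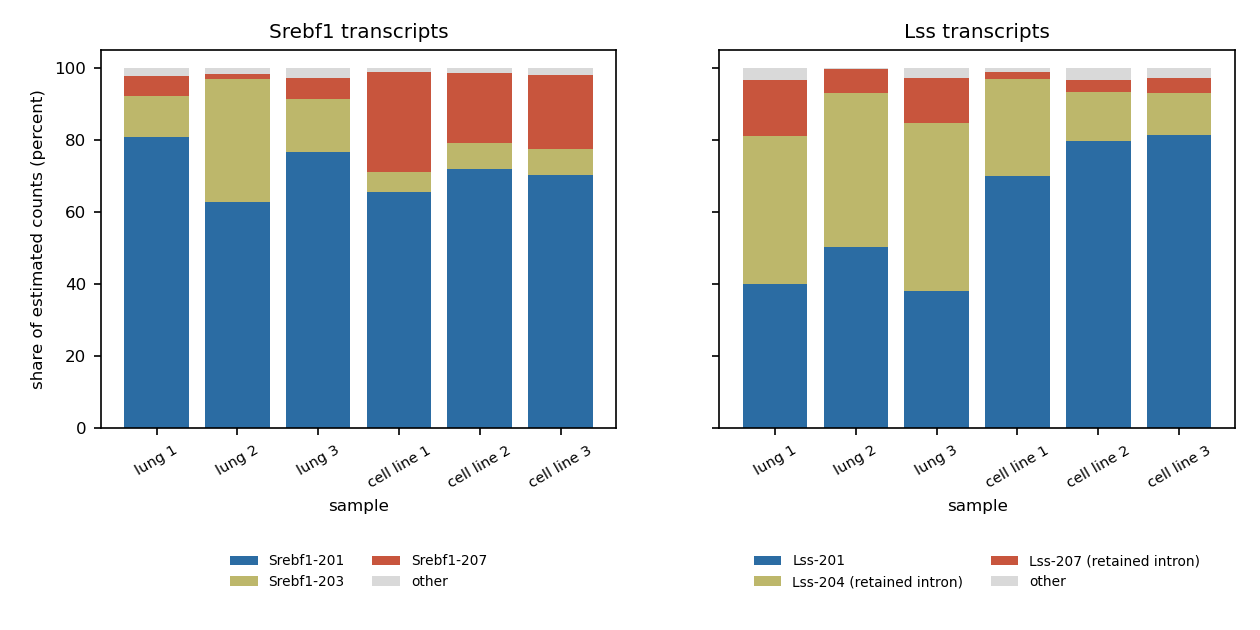
Share of each gene's estimated counts held by its main transcripts in each sample, in percent, for Srebf1 (left) and Lss (right). Srebf1-207 holds 19.5% to 27.8% in the cell line samples and at most 5.71% in the lungs, and the retained intron transcripts of Lss take a larger part in the lungs.

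Among the 8 fatty acid genes, Scd1 alone had a log2 fold change above 0. Of these 8 genes, 3 were lower in lung (37.5%, background 17.5%), 1 was higher (12.5%, background 31.3%) and 4 did not pass. The median log2 fold change was -0.74, with a range from -2.54 to 2.23 and 7 of the 8 below 0. For 4 of the 8, every lung sample was below every cell line sample in CPM (background 26.5%). By DESeq2 and by limma-voom 4 were lower (backgrounds 21.2% and 17.7%) and 1 was higher (32.6% and 31.5%). The widest contrast was between Scd1 and Scd2, which encode closely related stearoyl-CoA desaturases that make monounsaturated fatty acids. Scd1 was at 3424, 1199 and 5782 CPM in the lungs and at 1122, 546.4 and 551 CPM in the cell line. In CPM the lowest lung, replicate 2, was just above the highest cell line sample, replicate 1, and the log2 fold change was 2.23 ± 0.60 (adjusted p = 0.0158). Per length their order was the reverse, at 357 TPM in lung replicate 2 and 420 TPM in cell line replicate 1, so the groups overlapped in TPM. Scd2 was at 625.6, 261 and 736 CPM in the lungs and at 4285, 2552 and 2597 CPM in the line. Its groups lay far apart, with a log2 fold change of -2.54 ± 0.47 (adjusted p = 0.00262).

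Scd1 was thus 4.69-fold higher and Scd2 5.81-fold lower in lung by mean CPM, while their sum overlapped between the groups, at 1676, 425.4 and 2792 TPM in lung and 1834, 1033 and 1047 TPM in the line. Of that sum Scd1 made up 86.1%, 83.8% and 89.9% in the lungs and 22.9%, 19.5% and 19.5% in the cell line. The share was 86.6 ± 3.05% against 20.6 ± 1.95% (SD, n = 3 each), and an exact two-sided permutation test gave p = 0.1, the smallest that 3 samples against 3 allow. As a share within each sample, it does not depend on the scaling of the libraries. Nearly all counts fell on 1 transcript of each gene in the table, ENSMUST00000041331 for Scd1 and ENSMUST00000026221 for Scd2. The sequences are related, so some reads may be split between the genes. The Scd1 call was lost without cell line replicate 2 (log2 fold change 1.98, adjusted p = 0.0597) or replicate 3 (2.01, adjusted p = 0.0625), and without both cell line replicate 1 and lung replicate 2 the log2 fold change was 3.06. The Scd2 call held under all 15 alternatives.

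**Figure D4:**
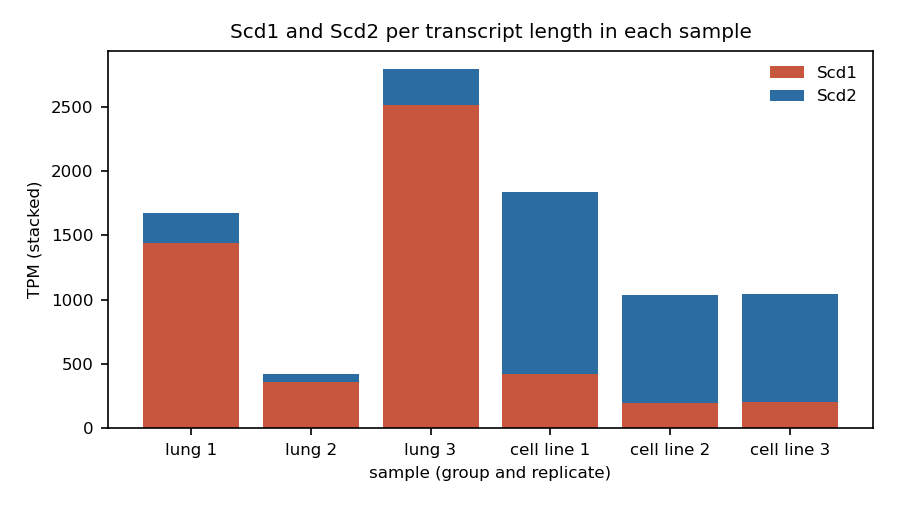
Stacked TPM of Scd1 (red) and Scd2 (blue) in each of the 6 samples, starting at 0. Scd1 makes up 83.8% to 89.9% of the bar in the lungs and 19.5% to 22.9% in the cell line, while the heights of the bars overlap between the groups.

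Markers of cells that are absent from the line were present beside the Scd1 level in the lungs. Alveolar type 2 markers summed to 14936, 21563 and 17883 CPM in lung replicates 1 to 3, the most in the replicate with the lowest Scd1. Single markers of the list differed in order. Replicate 2 was the highest lung for Sftpc and Napsa, the lowest for Sftpb, Lamp3 and Slc34a2, and between the others for Sftpa1 and Sftpd. Sftpc, the largest, with a count-weighted length of 791 bases, was at 8370, 16002 and 9544 CPM in these lungs. Slc34a2, a phosphate transporter of those cells with a count-weighted length of 4167 bases, was at 1613, 544 and 2358 CPM there and at 0 in the cell line. Adipocyte markers summed to 26.3, 257 and 78.2 CPM in the lungs and to at most 1.69 CPM in the line, with Plin1 and Lep at 0 there, and all 6 of the list were detected in the lungs. Replicate 2 had the highest adipocyte sum and the lowest Scd1, and it is the sample that deviated with length: Scd1 is 4831 bases long by count-weighted transcript length, and Cfd, which held most of that adipocyte sum, 897 bases. The part of either cell type, or of transcript length, in the Scd1 level was not tested.

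Elovl6, which lengthens palmitate to stearate, the substrate of the desaturases, was at 32.4, 17.5 and 32.9 CPM in the lungs and at 80.2, 143 and 149.9 CPM in the line. All lungs were far below the line (log2 fold change -2.17 ± 0.37, adjusted p = 0.00159), and the call held under all 15 alternatives. Acaca, the acetyl-CoA carboxylase that commits carbon to fatty acids, was at 80.4, 40.6 and 113 CPM against 151.5, 189 and 196 CPM (log2 fold change -1.20 ± 0.38, adjusted p = 0.0298). Its call was lost without lung replicate 1 (adjusted p = 0.077), cell line replicate 2 (0.0631) or cell line replicate 3 (0.0756).

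Acly, the citrate lyase that supplies cytosolic acetyl-CoA to both branches, was at 279.6, 146 and 350.0 CPM in the lungs against 399.7, 555.6 and 569 CPM in the line. The groups did not overlap, yet the gene did not pass (-0.97 ± 0.37, adjusted p = 0.0581). It passed without lung replicate 2 (-0.75, adjusted p = 0.043) or lung replicate 3 (-1.25, adjusted p = 0.0397), as well as by DESeq2 (adjusted p = 0.0189). Fasn, the fatty acid synthase, was at 476.8, 210.8 and 763 CPM against 561.5, 755.5 and 740.8 CPM, with overlap (-0.50 ± 0.45, adjusted p = 0.383). Per length its order was the reverse, 219 ± 126 TPM in lung and 146 ± 20.8 TPM in the line. Short retained intron transcripts weigh more per length, and 1 of these, Fasn-203 of 976 bases, held 5.68%, 16.5% and 5.87% of the gene's estimated counts in the lungs and at most 0.305% in the line. Fads1 and Fads2, the front-end desaturases of polyunsaturated fatty acids, did not pass (-0.14 ± 0.28 and -0.34 ± 0.27, adjusted p = 0.708 and 0.318).

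Set side by side, the median log2 fold change was -1.05 for the 19 sterol enzymes and -0.74 for the 8 fatty acid genes, and the difference between the branches was not tested. The fatty acid genes varied more between the lungs. Summed per length, all 8 reached 2218, 670.4 and 3558 TPM in the lungs and 2353, 1683 and 1701 TPM in the line. Without Scd1 and Scd2 the other 6 were at 541.6, 245 and 765.6 TPM against 518.9, 650.8 and 654.6 TPM. In CPM, where short Fasn transcripts carry no extra weight, these 6 were at 1132, 600.9 and 1556 in the lungs against 1487, 1934 and 1952 in the line, a 1.63-fold higher mean in the line. These sums overlapped between the groups, unlike the sterol enzyme sum.

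Most of the lung spread in the fatty acid genes came with lung replicate 2. All 8 were lower in that sample than in the mean of the other lungs, by a median of -1.17 on the log2 scale, with Scd1 at -1.89, Fasn at -1.52, Scd2 at -1.38 and Acaca at -1.23. The 19 sterol enzymes had a median deviation of -0.06 there, with 9 above 0 and 10 below, from -1.06 to 0.90 (Ebp), and Fdps was at 0.83. All genes tested had a median of -0.24. As the plot of deviation against length shows, the long members were the low ones in this sample. The part of length in these deviations was not tested for single genes.

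Cell line replicate 1 departed from its group in another way. Against the mean of replicates 2 and 3, which lay within -0.12 and 0.12 of each other for all 19 sterol enzymes, it was higher for 11 and lower for 8. Insig1 (1.30), Scd1 (1.03), Lss (0.99), Insig2 (0.83), Mvd (0.75) and Scd2 (0.73) stood highest on the log2 scale, and Elovl6 (-0.87), Tm7sf2 (-0.56) and Dhcr7 (-0.50) lowest. The counts of cell line replicates 2 and 3 differed by a chi-square of 2.70 per degree of freedom over genes, against 176 for cell line replicates 1 and 2. For the lungs it was 25.7 between replicates 1 and 3 and 222 between replicates 1 and 2. Cell line replicates 2 and 3 were thus far closer than any other pair compared. Whether they are independent cultures is not stated, so the cell line SD and the p-values may understate the spread between cultures.

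**Figure D5:**
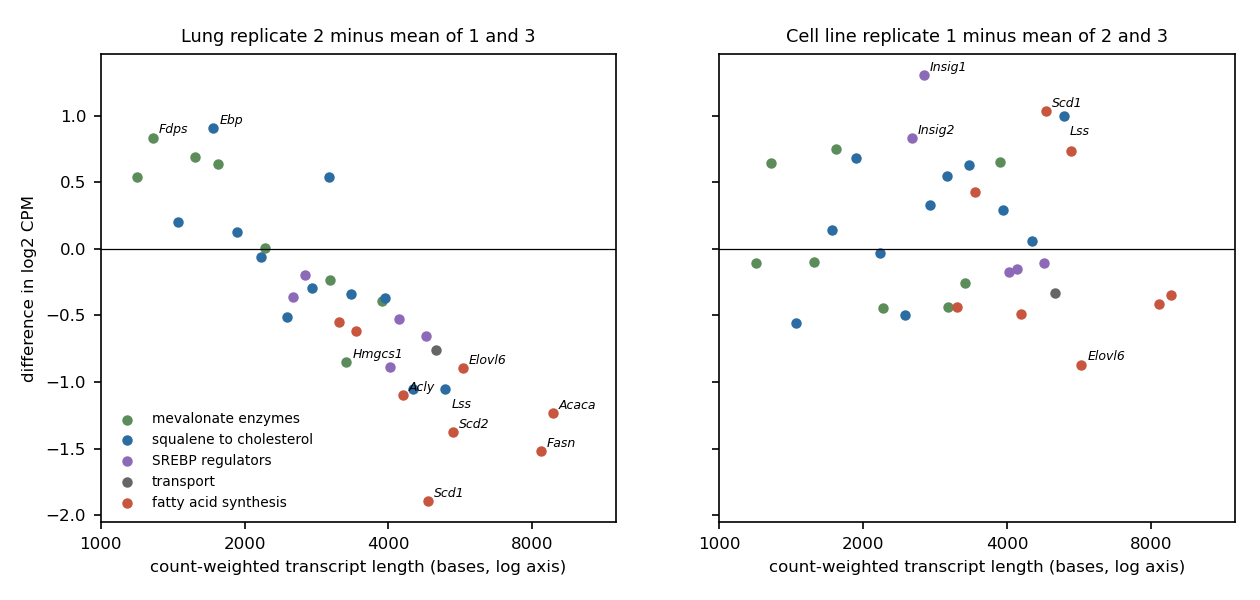
Difference in log2 CPM between lung replicate 2 and the mean of the other lungs (left), and between cell line replicate 1 and the mean of the other cell line samples (right), against each gene's count-weighted transcript length in bases on a log axis, coloured by role. On the left Ebp (0.90) and Fdps (0.83) are high and Scd1 (-1.89) and Fasn (-1.52) low, and on the right Insig1 (1.30) is the highest and Elovl6 (-0.87) the lowest.

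Within other members the transcript mixture also shifted, again by Salmon's estimates and with no test. For Lss the coding transcript Lss-201 made up 40.0%, 50.3% and 38.0% of the counts in the lungs and 70.1%, 79.8% and 81.4% in the line. The retained intron transcript Lss-204 held 41.2%, 42.7% and 46.9% in lung and 27.0%, 13.6% and 11.7% in the line. Counting only protein-coding transcripts, the log2 fold change of Lss was -2.47 (adjusted p = 0.000597). For Msmo1, the noncoding Msmo1-206 held 24.6%, 39.0% and 20.0% in lung and 13.8%, 11.5% and 12.3% in the line. Acly-201 was listed at 0 in all 3 lungs and held 24.7%, 13.6% and 10.2% of Acly counts in the line. A value of 0 for a single transcript can be a failed estimate.

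Related genes that were not among the 33 were counted in lists by function. Of 8 other genes of sterol metabolism and SREBP processing, 3 were lower in lung (37.5%, background 17.5%) and 0 higher (background 31.3%). By DESeq2 (background 32.6%), by limma-voom (31.5%) and at an unadjusted p below 0.05 also 0 were higher. Their median log2 fold change was -0.87. Mbtps2, the membrane protease that makes the final cut in SREBP, was at 23.2 ± 10.6 against 69.4 ± 12.8 CPM (-1.58 ± 0.40, adjusted p = 0.0116). Mbtps1, which makes the preceding cut, had a log2 fold change of -0.86 (adjusted p = 0.026) and is named after its value was seen. Of 10 genes that use the isoprenoids, 3 were lower (30%, background 17.5%) and 0 higher (background 31.3%). Also 0 of these genes were higher by DESeq2, by limma-voom and at an unadjusted p below 0.05. Their median log2 fold change was -0.22, with 5 genes above 0 and 5 below. Pdss2, of ubiquinone side chain synthesis, was at -0.95 (adjusted p = 0.0176) and Nus1, of dolichol synthesis, at -0.92 (adjusted p = 0.014).

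Genes of cholesterol efflux, esters and oxysterols went the other way. Of 16, 11 were higher in lung (68.8%, background 31.3%) and 0 lower (background 17.5%), with a median log2 fold change of 2.15. By DESeq2 (background 21.2%), by limma-voom (17.7%) and at an unadjusted p below 0.05 also 0 were lower. Ch25h, which makes an oxysterol that restrains SREBP processing, was at 12.9 ± 3.11 CPM among the lungs against 0.132 ± 0.141 CPM for cultured cells (6.50 ± 0.70, adjusted p = 0.000175). Cyp7b1, an oxysterol hydroxylase, had 679 counts over the lungs and 1 count over the cell line, a ratio of 586 (95% counting interval 105 to 23162). Alveolar macrophage markers moved with this list: they summed to 840.1 to 1105 CPM in the lungs and 35.0 to 176 CPM in the line, where Car4 was at 0 and most of the sum was Mrc1, which did not pass. Type 2 cell, endothelial and fibroblast markers, given above, moved with it too, and the part of these cells in the result was not tested.

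The other lipid lists had shares nearer to those of all genes. Of 19 tested genes of other lipogenic steps, 7 were higher in lung (36.8%, background 31.3%) and 1 lower (5.26%, background 17.5%), with a median log2 fold change of 0.41. Acacb, the mitochondrial counterpart of Acaca, was at 12.4 ± 6.91 against 0.572 ± 0.318 CPM (4.42 ± 0.66, adjusted p = 0.000838), and Thrsp, a lipogenic regulator, had a log2 fold change of 6.43 ± 1.01 (adjusted p = 0.00112) on 4 counts in the cell line. The lower gene, Hsd17b12, a reductase of fatty acid elongation, is named after its value was seen (-1.13 ± 0.23, adjusted p = 0.00425). Of 10 genes of fatty acid uptake, storage and oxidation, 4 were higher (40%, background 31.3%) and 2 lower (20%, background 17.5%). Fabp4 and Cd36, a fatty acid carrier and a fatty acid uptake receptor, led these at 8.18 ± 1.18 and 7.05 ± 0.45 (adjusted p = 0.000734 and 2.85e-05). Fabp4, also known from fat cells and endothelium, was at 10.1, 100.8 and 27.2 CPM in lung replicates 1 to 3, in the same order as the adipocyte marker sum. In replicate 2 most of that sum was Cfd, of 897 bases, and short transcripts were raised in that sample. The part of fat cells or of transcript length in this order was not tested.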

How the data were processed

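RNA from 3 lung and 3 cell line samples was sequenced with a TruSeq stranded mRNA kit after amplification, per the labels' protocols. The submitters' processing notes name the build GRCm39 and the tools Salmon 1.4.0, FastQC 0.11.9 and DESeq2 1.32.0 without roles. What the authors deposited are estimated counts, not whole numbers, of 76776 transcripts. No source used here gives the counting options or the annotation release. Transcript IDs were matched to GENCODE M21 (76521 matched, 99.67%). The 255 unmatched held 0.107% to 0.416% of a sample's counts. Counts were summed per symbol, rounded and tested with edgeR 4.0.16 (R 4.3.3): TMM scaling, filterByExpr, robust quasi-likelihood F test, lung against cell line, Benjamini-Hochberg over 15212 genes, threshold 0.05. Standard errors are the log2 fold change divided by the square root of F. TPM was computed here from annotated transcript lengths, and 1 count was worth 0.0399 to 0.0576 CPM. The labels name no molecular identifiers, so intervals cover counting error only.

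The 33 genes and all lists were chosen with earlier results of these data known. Values per sample are given for called members with the largest changes, highest levels or calls lost in an alternative, and for the pairs Srebf1 and Srebf2, Insig1 and Insig2, Scd1 and Scd2. From each other list come the 2 called genes of largest change at 5 CPM or more, and 1 gene that this rule names is not reported here. The 15 alternatives covered scaling, filters, DESeq2 1.42.0, limma-voom (limma 3.58.1), protein-coding transcripts, the replicate block and left-out samples. Replicate numbers were checked and did not pair the samples. Promoter windows are from RefSeq on GRCm38.p6, a different build from the one named for the counts, and were matched by symbol.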

Additional observations from a re-analysis of the deposited data

How the results depend on the processing

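Of 495 gene values under the 15 alternatives, 420 kept their direction and side of the threshold, 44 lost the threshold, 18 gained it and 13 changed sign. Of 20 calls 11 held throughout: Acat2, Fdft1, Sqle, Lss, Cyp51, Msmo1, Hsd17b7, Sc5d, Srebf2, Scd2 and Elovl6. Scaling by library size alone moved the median of all genes by 0.23 and took the share of calls that were higher from 64.1% to 75.1%. It gave 1728 genes lower (11.4% of those tested), with 1 mevalonate enzyme lower, 1 regulator lower and a sterol enzyme median of -0.83. Requiring 10 counts in all samples gave 2555 genes higher (21.3%) and 1701 lower (14.2%), 1 mevalonate enzyme lower and a median of -0.85. Protein-coding transcripts alone left 3 mevalonate enzymes lower (background 17.7%). Excluding both cell line replicate 1 and lung replicate 2 gave 5425 genes lower (35.2%) and a sterol median of -0.89. In that setting 6 mevalonate enzymes, 5 fatty acid genes and 1 sterol transport gene were lower. Leaving out 1 sample gave 1820 to 3773 genes lower (11.8% to 24.3%) and sterol medians from -1.25 to -0.92. The counts were 1 to 5 mevalonate enzymes lower and 0 to 1 fatty acid genes higher, beside 27.1% to 33.1% of all genes higher. Members below the threshold changed sign as follows. The log2 fold change of Mvk was 0.20 under library size alone, 0.18 with 10 or more counts in all samples, 0.029 for protein coding transcripts only, and from -0.35 to 0.13 with 1 sample left out. That of Fads1 was 0.092 under library size alone, 0.048 with 10 or more counts in all samples, from -0.33 to 0.01 with 1 sample left out and 0.20 excluding both samples. That of Pmvk ran from -0.071 to 0.29 with 1 sample left out and was -0.05 excluding both. Ggps1 was at 0.046 and Insig2 at 0.072 excluding both. With 1 sample left out they ran from -0.50 to -0.08 and from -0.58 to -0.05. The cause was not tested.

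Same-numbered samples deviated together with r of -0.04, 0.08 and -0.08, and only number 2 correlated best with its own number. With the replicate block, 4634 genes were higher (30.5%) and 2526 lower (16.6%). The counts lower were 4 mevalonate enzymes, 8 later sterol enzymes, 3 regulators and 4 fatty acid genes, with 1 fatty acid gene higher. A pseudocount alternative does not apply to counts.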
